A study of Mus musculus with 6 samples.

Results

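The transcriptional response to irradiation of cells sorted as blood stem cells was compared gene by gene. The comparison was between wild-type mice and mice in which Twist1 was conditionally knocked out (cKO). The members are the 7772 of 30409 genes that reached 5 FPKM (reads divided by the length of the gene and the size of the library) in at least 1 of 4 RNA-seq libraries. For each gene the response was taken within a genotype, as log2(FPKM + 1) in the irradiated library minus log2(FPKM + 1) in the steady-state library. The 4 libraries were 1 from wild-type and 1 from Twist1 cKO mice under steady state, and 1 from each genotype 12 days after irradiation. All mice were C57BL/6, and all cells were Lineage-Sca1+cKit+CD34-Flk2- bone marrow cells, the phenotype of long-term haematopoietic stem cells. The sources used here give neither the Cre driver behind the knockout, nor the radiation dose, nor the age and number of mice. Each group held 1 library, so no difference has a replicate check and no test was run. The irradiation response of the wild type and that of the cKO share no library. ATAC-seq of the irradiated cells was not analysed here.

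The Twist1 protein, a transcription factor of the basic helix-loop-helix family, binds short DNA motifs called E-boxes together with related partner proteins. Long-term stem cells sit at the top of blood formation and divide rarely; after irradiation the surviving cells have to rebuild the red cell, myeloid and lymphoid lineages. Bone marrow macrophages support red cell formation, clear dying cells and recycle iron.

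Twist1 was below the 5 FPKM limit in all libraries. It had 6 reads in the steady-state wild-type library, 5 in the irradiated wild-type library, 2 in the steady-state cKO library and 0 in the irradiated cKO library. The sources used here do not say which part of the gene was deleted.

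The sorted phenotype was checked against marker genes. Some genes of mature lineages were present at steady state, although the gate is Lineage-negative. In the steady-state wild-type and cKO libraries, Jchain (plasma cells) had 5063 and 2794 FPKM and Elane (neutrophils) 1007 and 762.9. Hba-a1 (red cells) had 685.1 and 254.7 FPKM and C1qa (macrophages) 207.4 and 58.0. Ms4a1 (B cells) had 1.16 and 0.807 FPKM and Cd3e (T cells) 0.589 and 0.193. The source of these transcripts was not tested. Hlf, a transcription factor of stem cells, had 17.4 FPKM in the steady-state wild-type library, 17.7 in the steady-state cKO library, 0.0608 in the irradiated wild-type library and 0.102 in the irradiated cKO library. The stem cell genes Mecom, Hlf, Procr, Fgd5, Hoxb5 and Meis1 together ranged from 1.69 to 66.1 FPKM at steady state and from 0.00718 to 1.22 FPKM after irradiation. Ly6a and Kit, which encode the Sca1 and cKit antigens of the gate, stayed detectable in every library, and the steady-state levels of Cd34 were 18.4 FPKM (wild type) and 29.2 FPKM (cKO) and those of Flt3 (Flk2) 6.26 and 9.32 FPKM, although the gate is negative for both. The libraries labelled as irradiated therefore carried Ly6a, Kit and some Slamf1 (3.65 and 2.81 FPKM) but little of the other stem cell transcripts, in either genotype. Sex-linked transcripts also followed the condition and not the genotype: Ddx3y, on the Y chromosome, went from 10.2 to 0.0521 FPKM in the wild type and from 12.4 to 0.0164 FPKM in the cKO. Any difference between male and female mice is therefore part of each response and cannot be told apart from irradiation.

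Reads recovered from the FPKM values summed over genes to between 20349828 and 25100818 per library. The share of reads from haemoglobin genes was 0.114% and 0.377% in the wild type (steady state, then irradiated) and 0.0474% and 1.13% in the cKO. Immunoglobulin genes took 14.7% and 2.71% of reads for the wild type and 9.87% and 8.87% for the cKO. Genes above 0 FPKM made up 73.1%, 79.2%, 77.0% and 88.9% (steady-state wild type, irradiated wild type, steady-state cKO, irradiated cKO, the order used for every set of 4 values below). Olfactory receptor genes, which serve the sense of smell, were above 0 for 18.4%, 51.7%, 34.7% and 74.3% of their number, highest in the irradiated cKO library.

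As deposited, the median member moved by 0.18 on the log2 scale for the wild type and by -0.17 for the cKO. The medians are -0.35 apart, so each response is given relative to its own median, and the response difference R is the relative response in the cKO minus that in the wild type. A positive R says that a gene went further up, or less far down, in the cKO. Genes with R of 1 or more are called higher and those with R of -1 or less lower, which is a 2-fold distance. Genes are said to have risen alike or fallen alike where both relative responses passed 2-fold in the same direction and lay within 1.5-fold of each other. For named genes the ratio of the fold responses (cKO over wild type, FPKM as deposited) is given with an exact 95% interval from the recovered reads. The median gene has a ratio of 0.738, which is the value to read a ratio against, and the intervals cover counting error only.

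Most genes had like responses in the 2 genotypes, and many moved little in either. Of the 7772 genes, 4557 (58.6%) stayed within 2-fold in both genotypes. Responses lay within 1.5-fold of each other for 6526 genes (84.0%), a count that takes in genes that hardly moved. A further measure is the 1983 genes that moved at least 2-fold the same way in both genotypes. Among these, 626 genes (8.05% of all members) rose alike and 887 (11.4% of all members) fell alike. Across genes the 2 responses had a Pearson correlation of 0.71 and a Spearman correlation of 0.85, given as a description because genes are not independent replicates. The rest was lopsided: 668 genes (8.59%) were higher in the cKO and 62 (0.798%) were lower.

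**Figure D1:**
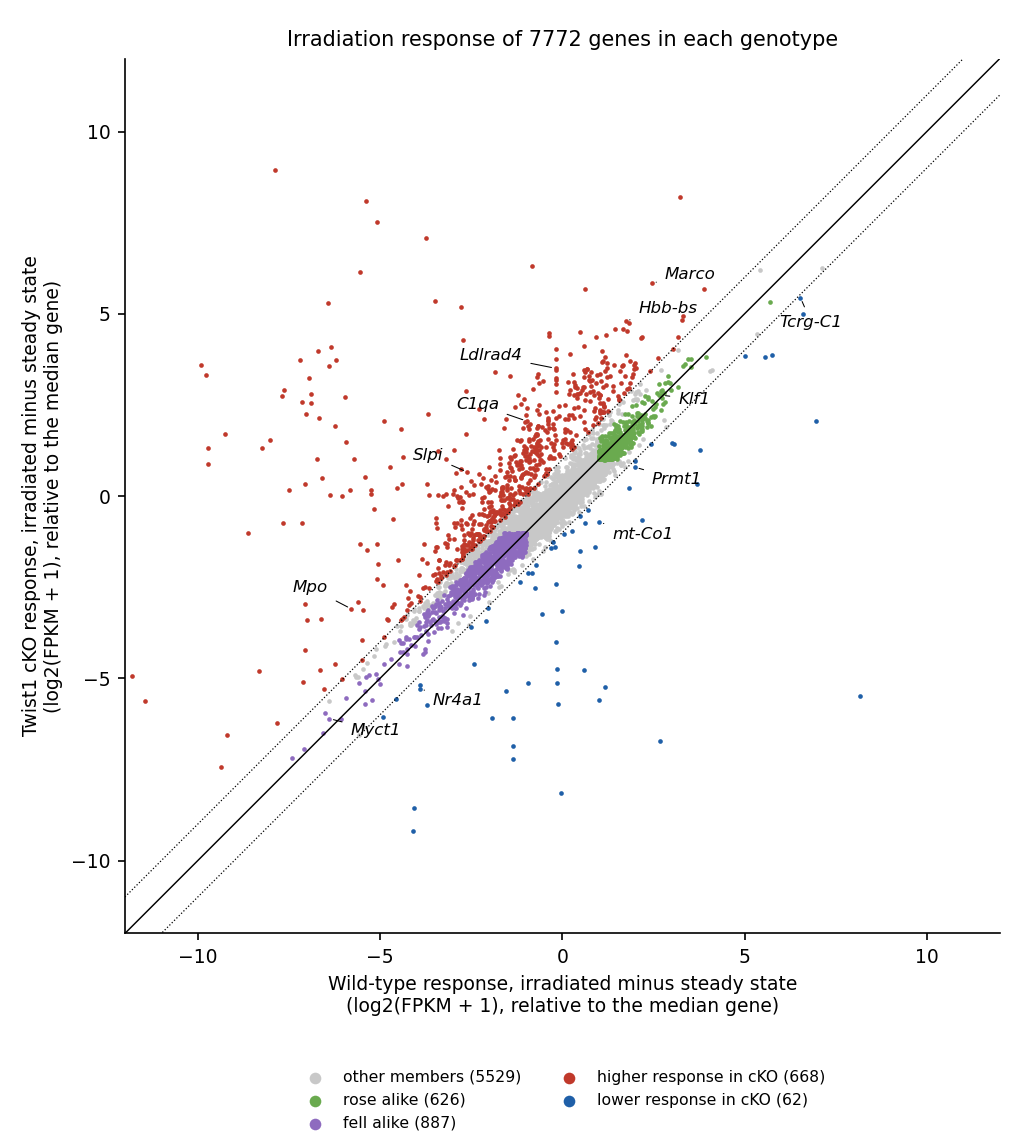
Relative irradiation response of 7772 genes in the wild type (x axis) and in the Twist1 cKO (y axis), both log2(FPKM + 1) relative to the median gene; each point is 1 gene, the solid line marks equal responses and the dotted lines mark R of 1 and -1. The 668 genes above the upper dotted line outnumber the 62 below the lower one, and the genes that rose or fell alike lie along the solid line.

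A higher R arose in several ways. Of the 668 higher genes, 201 fell at least 2-fold in the wild type and stayed within 2-fold in the cKO, 165 stayed within 2-fold in the wild type and rose in the cKO, and 131 fell in both but less far in the cKO. A further 71 fell in the wild type and rose in the cKO, and 69 rose in both. The same genes can be read at each condition: relative to the median gene, the cKO library was below the wild type at steady state (median -0.55) and above it after irradiation (median 1.28). The genotype difference had opposite signs in the 2 conditions for 563 of the 668 genes, and it was larger after irradiation for 527. For the 62 lower genes the medians were 0.97 at steady state and -0.45 after irradiation. Their genotype difference had opposite signs in the 2 conditions for 26 genes, and it was larger after irradiation for 30 and at steady state for 32. Apart from the medians subtracted, R is the genotype difference after irradiation less that at steady state. Choosing genes by R therefore favours these signs in both classes, so they give no separate support.

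The share of higher genes depended on how many libraries reached 5 FPKM. It was 26.1% (184 of 704 genes) where 1 library did, 9.92% where 2 did, 115 of 576 genes where 3 did and 4.49% (227 of 5060) where all 4 did. Of the 184, 119 were members only through the irradiated cKO library and 63 only through the steady-state wild-type library, the libraries in which a high value raises R. Immunoglobulin genes, whose segments share sequence so that reads may be assigned to the wrong copy, gave 141 of the 668 higher genes and 33 of the 62 lower ones. Without those and other non-coding or segment symbols, 425 genes were higher and 8 lower, so that 98.2% of the called genes were higher in place of 91.5%. For 570 of the 668 higher genes the counting interval lay wholly above the ratio of the median gene, and for 98 it contained that ratio. For the 62 lower genes it lay wholly below in 39 and contained it in 23. Just inside the limit lay Hpcal1 (1.006), Pdzk1ip1 (1.006) and Ccl3 (1.007), and just outside it Reep5 (0.998) and Calhm6 (0.996).

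Macrophage genes gave the most uniform difference. All 26 of the 31 listed macrophage and monocyte genes that were members were higher in the cKO, against 8.59% of all members, and their R ran from 1.65 to 3.39 with a median of 2.52. The median relative response of the list was -0.97 in the wild type, where 11 genes fell at least 2-fold, and 1.48 in the cKO, where 22 rose at least 2-fold; over all members 22.3% fell in the wild type and 13.7% rose in the cKO. C1qa (chromosome 4, 136895916 to 136898844 in GRCm38), a chain of complement C1q made by tissue macrophages, had 207.4, 118.9, 58.0 and 216.4 FPKM. It went down after irradiation in the wild type and up in the cKO, where the steady-state level was the lowest of the 4 and the irradiated level close to that of the steady-state wild type. Its ratio of fold responses was 6.506 (6.044 to 7.004). Cd5l, a secreted scavenger protein of macrophages, had 56.1, 31.6, 16.5 and 71.3 FPKM, with R of 3.21. Cd209f, a C-type lectin, had 27.1, 15.3, 6.50 and 34.6 FPKM, with R of 3.39. Both followed the order of C1qa, with the steady-state cKO library lowest and the irradiated cKO library highest.

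Marco, a scavenger receptor for bacteria, differed from these in rising in both genotypes. It had 1.86, 16.8, 0.309 and 65.4 FPKM, and its relative response was 2.46 for the wild type and 5.84 for the cKO. Adgre1, which encodes the macrophage surface protein F4/80, had 17.1, 8.68, 6.07 and 21.6 FPKM, so its relative response was -1.08 for the wild type and 1.85 for the cKO. The smallest response differences among the listed macrophage genes that the rule names were those of Apoe, the apolipoprotein of macrophages and liver, with 1041, 242.3, 563.7 and 357.6 FPKM (R 1.80), and Ctsb, a lysosomal protease, with 305.6, 214.0, 148.3 and 357.1 FPKM (R 2.13). Summed over the list, macrophage FPKM was 4022, 1859, 1694 and 3192, and none of the listed genes was at 0 in any library. In bulk RNA, fewer cells of a type and less RNA per cell cannot be told apart.

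Some genes of lysosomes, iron recycling and adhesion that macrophages also use were higher in the cKO. Of 34 lysosomal genes, 11 were higher and none lower (8.59% and 0.798% of all members), with a median R of 0.76. Of 16 haem and iron genes 2 were higher, Alas2 of red cell haem synthesis and Slc40a1, a count near the 8.59% of all members. In that list 8 rose alike (8.05% of all members), and the median R was 0.10. Of 16 niche and adhesion genes 4 were higher and 7 fell alike (8.59% and 11.4% of all members). Their median R was 0.41. Psap, the precursor of the saposins that help degrade sphingolipids, had 147.8, 126.1, 69.9 and 264.6 FPKM (R 2.49), whereas Gusb, beta-glucuronidase, had 24.1, 37.0, 25.5 and 28.4 FPKM (R -0.10). Slc40a1, the iron exporter ferroportin, had 38.2, 25.2, 14.1 and 41.1 FPKM (R 2.42). Hmox1, the haem-degrading oxygenase, had 86.2, 65.7, 33.5 and 112.2 FPKM (R 2.46). Vcam1, an adhesion molecule of marrow macrophages and stroma, had 48.3, 16.1, 18.0 and 33.5 FPKM (R 2.74). In each of Psap, Slc40a1 and Hmox1 the irradiated cKO library was the highest and the steady-state cKO library the lowest of the 4, as for C1qa; the part of the macrophage transcripts in these values was not tested.

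**Figure D2:**
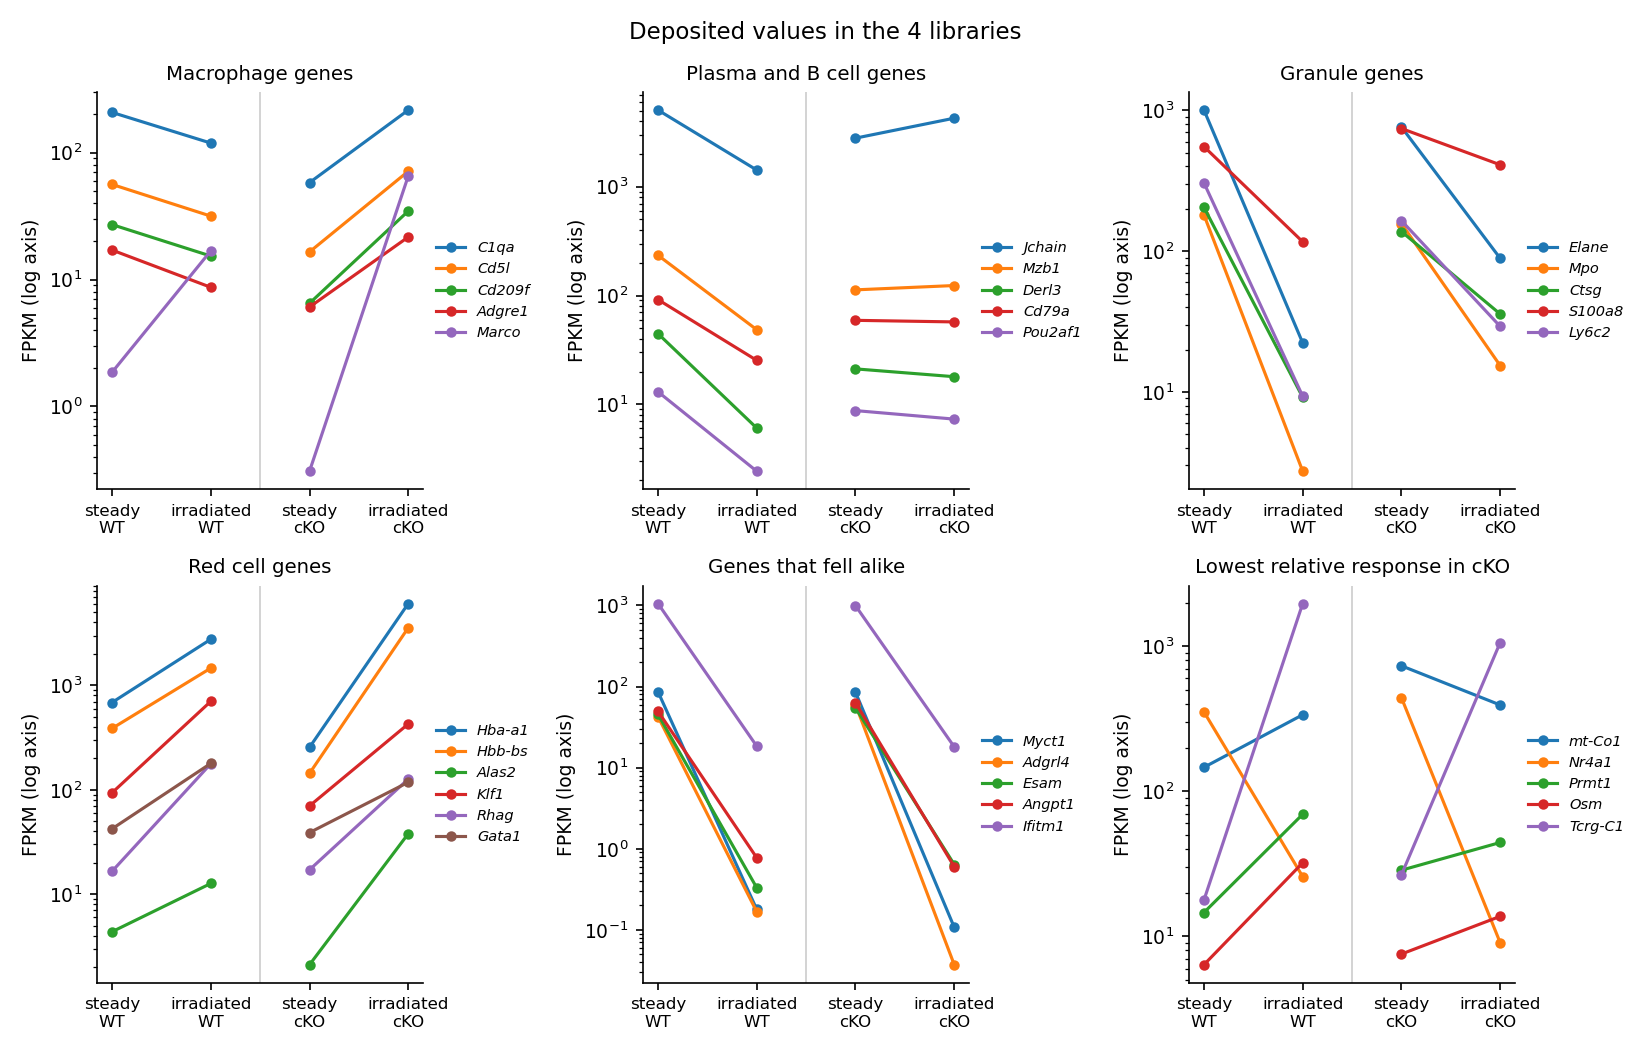
FPKM as deposited (y axis, log scale) of chosen genes in the 4 libraries (x axis), with a line joining the steady-state and the irradiated library of each genotype; every point is 1 library. C1qa fell from 207.4 to 118.9 FPKM for the wild type and went from 58.0 to 216.4 for the cKO, whereas Klf1 rose and Myct1 fell in both genotypes.

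Red cell genes were divided. All 5 globin genes that were members were higher in the cKO, with a median relative response of 1.74 for the wild type and 4.58 for the cKO. Of these 5, 1 was a member through 1 library only. Hbb-bs, an adult beta globin (chromosome 7, 103826523 to 103827928), had 386.6, 1462, 143.5 and 3563 FPKM, a 3.78-fold rise in the wild type and a 24.8-fold rise in the cKO. Hba-a1, an alpha globin, had 685.1, 2762, 254.7 and 6074 FPKM, with R of 2.91. The globin genes rose in both genotypes, starting lower and ending higher in the cKO. The paired copies Hba-a1 and Hba-a2, and Hbb-bs and Hbb-bt, are nearly identical, so the division of reads within each pair is uncertain. Alas2, the erythroid enzyme that begins haem synthesis, went with them at 4.36, 12.7, 2.11 and 37.9 FPKM (R 2.65). Slc4a1, the anion exchanger band 3 of the red cell membrane, had 0.228, 1.77, 0.162 and 5.60 FPKM (R 1.68). It was a member only through the irradiated cKO library, in which a high value raises R, so its call adds no support.

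Most other genes of the red cell programme were not called, and more of them rose alike than among all members. Of 43 members of the lists for haem and iron, red cell membrane, and erythroid transcription factors together, 38 had responses within 1.5-fold of each other, 20 rose alike, 5 fell alike, 4 were higher (Alas2, Slc40a1 and Slc4a1 among them) and none was lower; over all members those shares were 84.0%, 8.05%, 11.4%, 8.59% and 0.798%, so the count within 1.5-fold and the count of higher genes were near those of all members. Klf1, the transcription factor that activates adult globin genes (chromosome 8, 84901982 to 84905291), had 93.5, 702.7, 70.0 and 426.9 FPKM, with relative responses of 2.72 and 2.77. Gata1, the central erythroid transcription factor, had 42.2, 178.8, 38.9 and 118.0 FPKM (R -0.13). Rhag, a membrane protein of the Rh complex, had 16.5, 177.5, 17.1 and 126.7 FPKM (R -0.18). Tfrc, the transferrin receptor that takes up iron, had 6.14, 37.6, 6.00 and 28.7 FPKM, with a relative response of 2.26 in each genotype. Car1, a red cell carbonic anhydrase, had 1318, 4546, 905.1 and 1995 FPKM (R -0.29). Thus Klf1, Gata1, Rhag and Tfrc rose by like amounts in both genotypes, while globin genes and Alas2 rose further in the cKO.

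Transcripts of antibody-producing cells fell in the wild type and held their level in the cKO. Of 14 plasma cell genes, 10 were higher and none lower (8.59% and 0.798% of all members), with median relative responses of -1.96 and -0.16. Jchain, the joining chain of secreted antibodies, had 5063, 1423, 2794 and 4264 FPKM, with a ratio of fold responses of 5.43 (5.38 to 5.48). Mzb1, a chaperone of antibody secretion, had 234.3, 48.5, 112.7 and 123.5 FPKM (R 2.73), and Derl3, which acts in the degradation of misfolded proteins, had 44.6, 6.05, 21.2 and 17.9 FPKM (R 2.82). In all of these the irradiated wild-type library was the lowest. The 199 immunoglobulin genes among the members had a median R of 2.74, but they were not uniform. Of them 141 were higher and 33 lower (8.59% and 0.798% of all members). Of 10 B cell genes, 7 were higher, with Cd79a, a signalling chain of the B cell receptor, at 91.7, 25.4, 59.1 and 57.2 FPKM (R 2.12). Vpreb1, part of the receptor of early B cell precursors, did not follow at 21.5, 11.7, 20.7 and 9.004 FPKM (R 0.06).

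Genes of T and NK cells were mixed. Among 15 members, 11 were higher and 1 was lower, against 8.59% and 0.798% of all members. Of the 15, 5 were members through 1 library only, and among all such genes 26.1% were higher. Ccl5, a chemokine of T and NK cells, had 13.7, 5.32, 11.6 and 21.7 FPKM (R 2.43), and Trbc1, a T cell receptor beta constant region, had 29.1, 1.45, 23.1 and 7.51 FPKM (R 2.47). The lower gene was Tcrg-C1, a T cell receptor gamma constant region, with 17.8, 1969, 26.6 and 1061 FPKM. It rose steeply in both genotypes, with relative responses of 6.53 and 5.44. Nkg7, a granule membrane protein of cytotoxic cells, had 318.3, 75.6, 325.1 and 98.2 FPKM (R 0.70). Of 13 MHC class II and dendritic cell genes 7 were higher (8.59% of all members). In the list of mast cells, basophils and eosinophils 5 of 10 were. Members through 1 library only numbered 1 and 2 in these lists. Cd74, the MHC class II invariant chain, had 1157, 457.2, 601.2 and 775.9 FPKM (R 2.06).

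Granulocyte genes fell in the wild type, and many fell less far in the cKO. Of 11 azurophil granule genes, 5 were higher (Mpo, Elane, Ctsg, Ms4a3 and Prtn3; 8.59% of all members were), with a list median R of 0.70. Mpo, myeloperoxidase (chromosome 11, 87793784 to 87804412), had 181.0, 2.73, 157.0 and 15.4 FPKM, and its relative responses were -5.79 and -3.10. Elane, neutrophil elastase, had 1007, 22.3, 762.9 and 88.9 FPKM (R 2.70), and Ctsg, cathepsin G, had 204.8, 9.15, 137.9 and 35.8 FPKM (R 2.78). For these 3 genes the steady-state level was lower in the cKO, and the irradiated wild-type library was the lowest of the 4. Of 18 later neutrophil genes, 14 fell at least 2-fold in the wild type (22.3% of all members did) and 8 in the cKO (18.3% of all members), and 12 were higher in R, among them S100a8, a calcium-binding alarmin, at 553.9, 116.6, 744.4 and 411.1 FPKM (R 1.74). Chil3, a secreted chitinase-like protein, had 40.8, 15.1, 115.3 and 41.8 FPKM (R 0.28): its levels were higher in the cKO under both conditions, and the responses were alike.

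**Figure D3:**
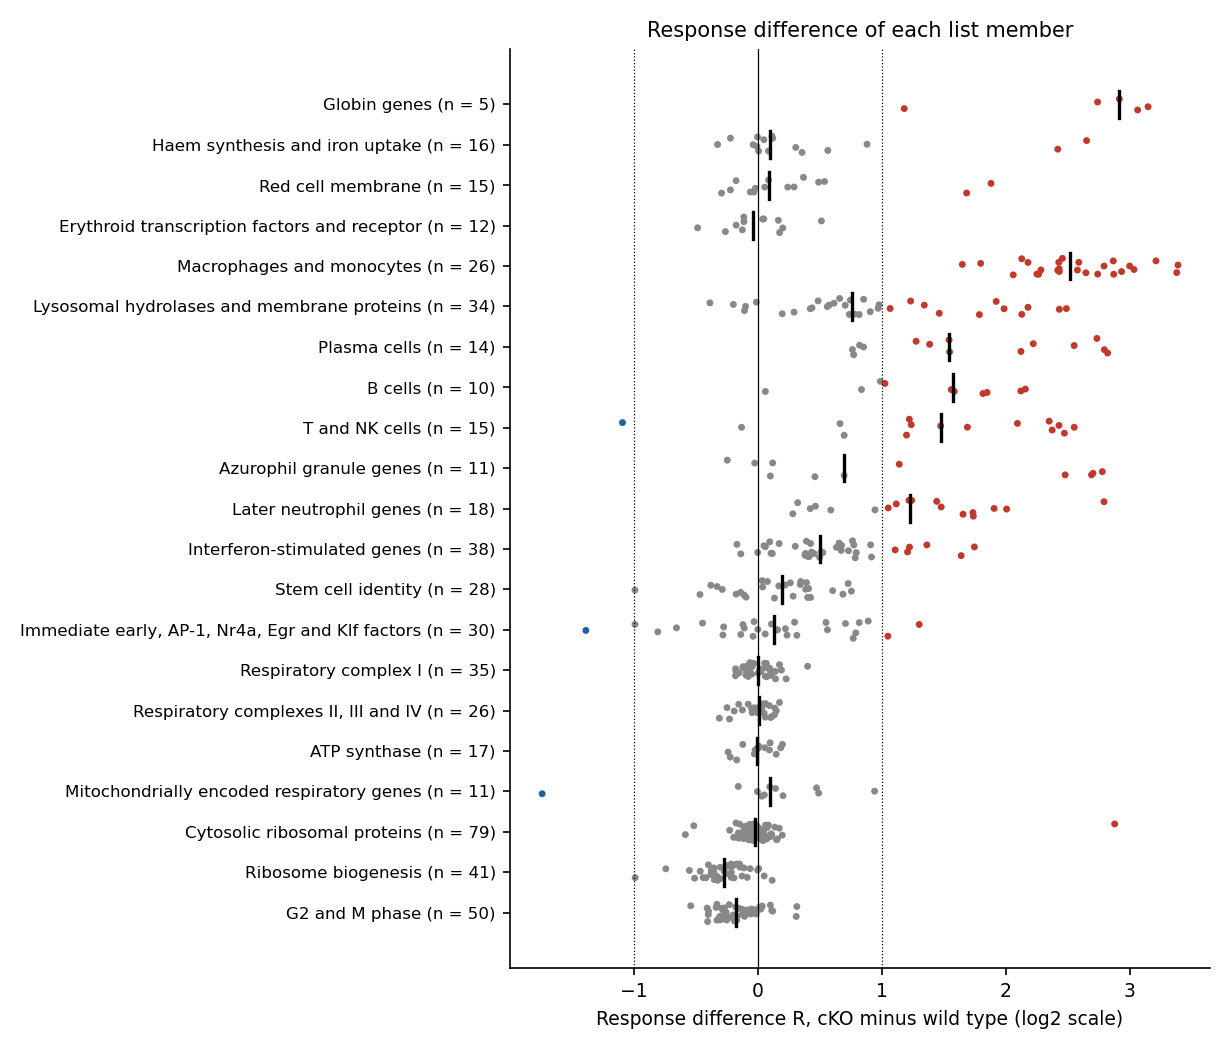
Response difference R (x axis, cKO minus wild type, log2 scale) of each member of 21 gene lists; every point is 1 gene, red at R of 1 or more and blue at R of -1 or less, the black bar is the list's median and the height within a row carries no meaning. All macrophage and globin genes lie to the right of 1, and the nuclear respiratory genes lie between -0.31 and 0.40.

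Among single genes outside those lists, Ldlrad4, an inhibitor of TGF-beta signalling, had the highest R. It had 1.59, 1.58, 2.23 and 31.4 FPKM: it was level in 3 libraries and stood out in the irradiated cKO library, with a ratio of fold responses of 14.22 (10.04 to 20.11). Ldlrad4 was a member only through that library, in which a high value raises R. Of 12 members of the TGF-beta list, 3 were higher (Ldlrad4, Id2 and Tgfbi) and 4 fell alike, against 8.59% and 11.4% of all members. Id2, an inhibitor of basic helix-loop-helix factors, had 139.5, 58.6, 71.0 and 107.5 FPKM (R 2.18), whereas its relative Id1 had 15.5, 9.73, 22.1 and 5.15 FPKM (R -0.93). The R of the 2 inhibitors thus had opposite signs, although both fell relative to the median gene in the wild type (-1.42 and -0.80). Smad2 and Smad4, which carry the TGF-beta signal, had R of 0.05 and 0.06. Slpi, a secreted inhibitor of leukocyte proteases, had 288.9, 52.96, 86.6 and 121.2 FPKM (R 3.26). Rpl29 had 80.2, 195.8, 18.2 and 265.9 FPKM (R 2.88), unlike the other 78 ribosomal protein genes, none of which was called; it has many pseudogene copies, so its counts are uncertain.

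Of the genes for the 4 antigens of the sorting gate, Ly6a was higher in the cKO, and Kit, Cd34 (R -0.09) and Flt3 (R 0.46) were not called. Ly6a (chromosome 15, 74994877 to 74998031), which encodes Sca1, had 533.5, 89.1, 361.8 and 255.7 FPKM. Its relative response was -2.75 for the wild type and -0.32 for the cKO, and the ratio of fold responses was 4.23 (4.02 to 4.46). Kit (chromosome 5, 75574987 to 75656722), the receptor of stem cell factor, had 20.1, 8.52, 27.6 and 4.98 FPKM, with relative responses of -1.33 and -2.08. Its R of -0.76 did not reach the 2-fold distance. Both antigens were used to select the cells.

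Few named genes were lower in the cKO. The lowest was mt-Co1, a mitochondrially encoded subunit of cytochrome c oxidase, with 146.3, 337.0, 732.8 and 393.5 FPKM, where the steady-state cKO library stood apart from the other 3. Nuclear copies of mitochondrial sequence make its counts uncertain, and the 10 other mitochondrially encoded members had R between -0.16 and 0.94. Nr4a1 (chromosome 15, 101253902 to 101274795), an immediate early nuclear receptor linked to stem cell quiescence, had 352.7, 25.8, 441.4 and 9.03 FPKM. It fell in both genotypes and further in the cKO, with a ratio of 0.280 (0.252 to 0.310). Its relative Nr4a2 had 26.9, 4.39, 27.1 and 1.14 FPKM and an R of -0.99, just short of the limit. Prmt1, the main arginine methyltransferase, had 14.6, 69.4, 28.6 and 44.4 FPKM (R -1.20), and Osm, the cytokine oncostatin M, had 6.37, 32.1, 7.55 and 13.7 FPKM (R -1.03). Myc, a transcription factor of growth, had 171.6, 192.3, 196.9 and 98.1 FPKM (R -0.81), level in the wild type and lower in the irradiated cKO library.

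Promoters are shown for the highest and lowest genes in R that had an entry, 3 of each, because the E-box is the motif that basic helix-loop-helix factors such as Twist1 recognise. Each sequence runs 5′ to 3′ on the strand of its gene from 250 bases before to 50 after the start, as given by RefSeq on GRCm38.p6, and capitals mark CANNTG, the general E-box, which reads the same way on both strands. Cd209f lies at chr8:4105715-4106014, minus strand; Marco at chr1:120504975-120505274, minus strand. Slpi lies at chr2:164356458-164356757, minus strand; Nr4a1 at chr15:101266596-101266895, plus strand. Prmt1 lies at chr7:44986371-44986670, minus strand, and Ccnb1ip1, which acts in meiotic recombination and had an R of -1.005, at chr14:50795679-50795978, minus strand.
Cd209f: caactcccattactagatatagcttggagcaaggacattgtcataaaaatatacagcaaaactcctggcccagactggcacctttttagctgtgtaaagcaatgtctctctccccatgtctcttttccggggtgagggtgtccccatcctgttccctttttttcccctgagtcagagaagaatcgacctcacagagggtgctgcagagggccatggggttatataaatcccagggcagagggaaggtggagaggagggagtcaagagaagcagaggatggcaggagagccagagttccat
Marco: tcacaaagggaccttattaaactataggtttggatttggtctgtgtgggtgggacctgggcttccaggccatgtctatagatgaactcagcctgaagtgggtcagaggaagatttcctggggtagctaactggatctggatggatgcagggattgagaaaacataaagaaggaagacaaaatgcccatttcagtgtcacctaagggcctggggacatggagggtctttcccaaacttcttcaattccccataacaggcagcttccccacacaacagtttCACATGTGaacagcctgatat
Slpi: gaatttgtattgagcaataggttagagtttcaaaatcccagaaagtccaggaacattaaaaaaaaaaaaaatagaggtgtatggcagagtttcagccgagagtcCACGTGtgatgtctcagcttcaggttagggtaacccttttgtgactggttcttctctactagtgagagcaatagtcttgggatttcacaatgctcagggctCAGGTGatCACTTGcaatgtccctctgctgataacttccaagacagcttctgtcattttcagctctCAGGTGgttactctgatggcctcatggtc
Nr4a1: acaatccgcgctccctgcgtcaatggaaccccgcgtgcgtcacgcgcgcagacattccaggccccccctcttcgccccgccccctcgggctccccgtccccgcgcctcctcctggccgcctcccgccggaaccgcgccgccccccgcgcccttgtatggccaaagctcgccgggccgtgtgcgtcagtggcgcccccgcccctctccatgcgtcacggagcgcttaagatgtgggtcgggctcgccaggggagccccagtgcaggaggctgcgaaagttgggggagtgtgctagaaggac
Prmt1: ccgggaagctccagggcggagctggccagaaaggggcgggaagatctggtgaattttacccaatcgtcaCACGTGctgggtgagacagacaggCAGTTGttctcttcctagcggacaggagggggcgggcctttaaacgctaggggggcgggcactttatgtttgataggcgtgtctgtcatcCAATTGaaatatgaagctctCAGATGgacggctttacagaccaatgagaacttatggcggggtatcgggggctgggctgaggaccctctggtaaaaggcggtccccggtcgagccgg
Ccnb1ip1: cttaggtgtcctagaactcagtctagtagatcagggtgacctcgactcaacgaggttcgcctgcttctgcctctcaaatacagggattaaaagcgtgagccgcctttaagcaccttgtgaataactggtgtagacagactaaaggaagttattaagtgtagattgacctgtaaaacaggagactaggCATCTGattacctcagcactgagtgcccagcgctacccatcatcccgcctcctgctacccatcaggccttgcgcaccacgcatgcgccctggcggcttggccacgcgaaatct

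These windows hold 0 (Cd209f), 2 overlapping (Marco), 4 (Slpi), 0 (Nr4a1), 4 (Prmt1) and 1 (Ccnb1ip1) E-boxes, so neither the highest nor the lowest genes shared the motif. A CANNTG was found in 70.3% of 310 promoters of higher genes, in 60.7% of 445 of genes that rose alike in 67.5% of 630 of genes that fell alike and in 4 of 5 of lower genes. It was found in 62.4% of 5428 promoters of all members and in 72.1% of all 27025 promoters in the table. The mean GC content of the higher genes' promoters was 54.9%, against 60.2% for all members. The narrower E-box CAGATG, counted on both strands and contained in the CANNTG count, was found in 14.8% of the higher, 7.87% of the rose-alike and 12.7% of the fell-alike promoters, and in 2 of 5 of the lower ones. The share was 11.1% over all members and 17.2% over all promoters. Another E-box, CATATG, was found in 4.52% of the higher, 0.674% of the rose-alike, 1.43% of the fell-alike and none of the lower promoters, against 1.58% over all members and 3.91% over all promoters. A match describes the letters in the window and is no evidence of binding.

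Stem cell genes fell in both genotypes. Of 28 members of the stem cell identity list, 19 fell alike (11.4% of all members), none was higher and none lower, and the median relative responses were -3.30 and -2.97. Myct1, a target of Myc expressed in stem cells and endothelium, had 86.3, 0.179, 85.1 and 0.108 FPKM (R 0.28). Nkx2-3, a homeobox transcription factor, had 79.0 and 68.8 FPKM at steady state (wild type, cKO) and no read in either irradiated library. Esam, an adhesion molecule of stem cells and endothelium, had 45.4, 0.331, 54.6 and 0.640 FPKM (R 0.39). Procr, the protein C receptor that marks stem cells, had 51.3, 0.333, 66.1 and 1.22 FPKM (R 0.73). For these genes the steady-state libraries of the 2 genotypes were close and the irradiated libraries were near 0 in both.

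Many genes of early signalling and of platelets also fell. Of 30 immediate early, AP-1, Egr and Klf genes, 15 fell alike, Klf2 and Rhob were higher and Nr4a1 was lower; over all members 11.4% fell alike, 8.59% were higher and 0.798% lower. Dusp2, a phosphatase that switches off MAP kinases, had 146.0, 4.55, 183.1 and 5.68 FPKM (R 0.30). Klf2, a factor of quiescence, had 39.1, 2.20, 70.4 and 9.97 FPKM (R 1.30). Of 12 megakaryocyte genes, 4 fell alike and 1, Pf4 (platelet factor 4), was higher, at 288.3, 11.8, 249.3 and 25.7 FPKM (R 1.63). Runx1, a master transcription factor of blood formation, had 5.45, 1.03, 5.65 and 0.891 FPKM (R 0.21), and its partner Cbfb had R of -0.14.

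Genes of growth and division responded alike. All 106 members of the G1 to S, replication and mitosis lists together had responses within 1.5-fold of each other, and 44 of them rose alike (84.0% and 8.05% of all members); their median relative responses were 0.98 and 0.85. Kif20a, a kinesin of cell division, had 4.39, 21.6, 5.18 and 14.3 FPKM (R -0.40). Nek2, a kinase of the centrosome, had 3.76, 14.3, 3.50 and 10.2 FPKM (R -0.01). All 78 nuclear members of the oxidative phosphorylation lists likewise lay within 1.5-fold, with a median R of 0.01 and a range from -0.31 to 0.40, and 20 rose alike. Ndufs6, a subunit of complex I, had 228.2, 584.5, 172.2 and 345.6 FPKM, with relative responses of 1.17 and 1.18. Cyc1, cytochrome c1 of complex III, had 253.5, 928.9, 238.6 and 551.3 FPKM (R -0.31). These lists are alike relative to the median gene. On the values as deposited, without that reference, the median difference was -0.35 for the nuclear respiratory genes and -0.52 for the cell cycle genes, and 75 of 78 and 65 of 106 lay within 1.5-fold.

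**Figure D4:**
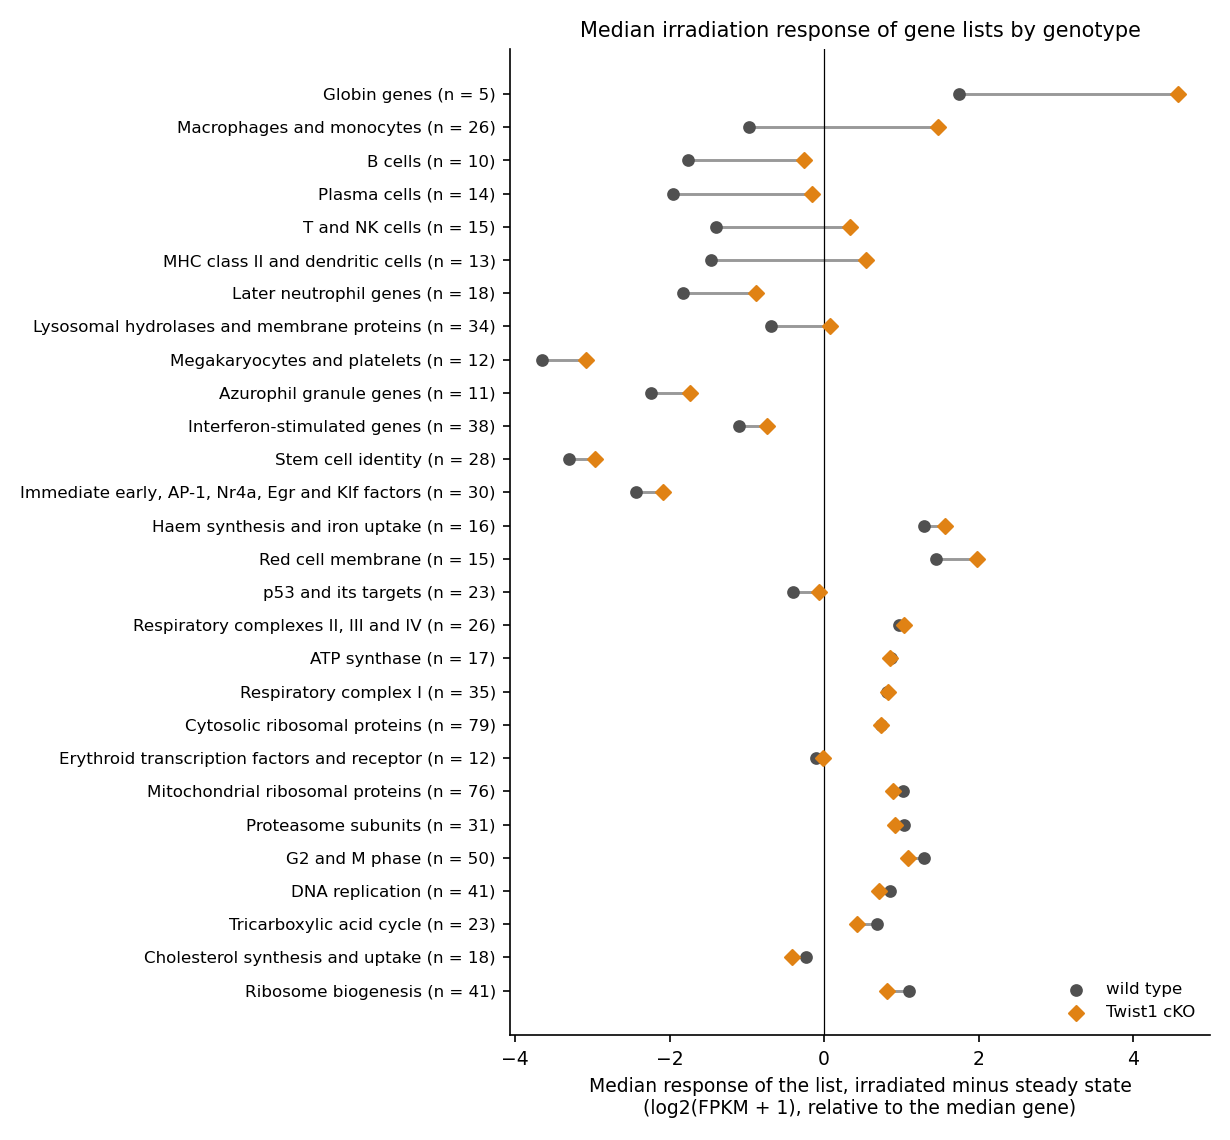
Median relative irradiation response (x axis, log2(FPKM + 1), relative to the median gene) of 28 gene lists in the wild type (grey circles) and the Twist1 cKO (orange diamonds), sorted by the median R of each list; n is the number of members. The symbols nearly coincide for the respiratory complexes and ribosomal proteins, and lie apart for globin (1.74 and 4.58) and macrophage genes (-0.97 and 1.48).

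Protein synthesis and quality control followed the same course with small shifts. Of 76 mitochondrial ribosomal protein genes, 29 rose alike, and of 25 genes of mitochondrial import, 17 did, against 8.05% of all members. Of 31 proteasome genes, 12 rose alike, with Psma2, a subunit of its core, at 429.6, 999.4, 367.6 and 666.7 FPKM (R -0.01). Ribosome biogenesis had a median R of -0.27 over 41 genes, against -0.05 over all members. Gar1, a protein of small nucleolar ribonucleoproteins, had 44.2, 201.2, 70.9 and 125.8 FPKM (R -0.99), and Fbl, the nucleolar methyltransferase fibrillarin, had 40.9, 149.0, 57.6 and 97.2 FPKM (R -0.74). Both rose in the wild type from a lower steady-state level than in the cKO. The metal-binding metallothioneins rose alike: Mt2 had 102.0, 1209, 64.5 and 716.0 FPKM (R 0.25) and Mt1 416.5, 3547, 270.5 and 2095 FPKM (R 0.22).

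Of 38 interferon-stimulated genes, 6 were higher, 6 fell alike and none was lower (8.59%, 11.4% and 0.798% of all members), and the median R was 0.50. Isg15, a ubiquitin-like protein induced by interferon, had 21.8, 26.5, 17.0 and 42.7 FPKM (R 1.36), and Irgm1, an interferon-induced GTPase, had 24.1, 18.3, 23.6 and 13.7 FPKM, with the same relative response of -0.56 in each genotype. Of 23 genes of p53 and its targets, 2 were higher (Trp53inp1 and Pmaip1), 3 rose alike and 5 fell alike, with a median R of 0.05, and of 11 heat shock genes none was called; for p53 the count of higher genes was near the share of all members. Cdkn1a, the cell cycle inhibitor p21, had 79.4, 29.5, 68.8 and 36.6 FPKM (R 0.86), lower after irradiation in both genotypes. Cacna1b, a calcium channel subunit, and Ppargc1a, a coactivator of mitochondrial genes, stayed below the 5 FPKM limit in all libraries.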

How the data were processed

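RNA-seq was analysed in 4 libraries, 1 per group. The authors deposited FPKM per gene, 1 file per library; per the submitters' processing notes the series used HOMER, MACS2 2.1.0, BWA 0.7.12-r1039, Bowtie and mm10, with no word on which of them counted RNA reads. Symbols were found for 30231 identifiers and not for 178. Members had at least 5 FPKM in any library. Responses were taken on log2(FPKM + 1), centred on the median of the members, with no test and no p-value. FPKM fixes 1 constant per library and a whole length per gene, from which reads were recovered for 29933 of 29934 genes above 0; the library sizes implied were 22146433 to 26031985. Exact conditional intervals (95%) of the ratio of fold responses came from these reads (Python 3.11.15, SciPy 1.17.1, pandas 2.3.3, NumPy 2.4.6). PCR duplicates are not known, so intervals cover counting error only. The calculation was tested on simulated data. Named genes were, at 10 FPKM or more and without non-coding, predicted, pseudogene, olfactory and receptor segment symbols, the 16 highest and 16 lowest R, 12 that rose and 12 that fell alike, up to 4 members of each list with the largest and 2 with the smallest absolute R, and a fixed set; some genes this rule takes in are not reported here. Genes nearest the limit on either side, and those that complete a count of 5 or fewer, were named after their values were seen. The members, the 61 gene lists, the motifs and the rules were chosen with earlier results of these data known, so they give no independent support. Alternatives were other pseudocounts, minimum levels, scalings, gene filters and distances; scaling to recovered reads, leaving out marker and immunoglobulin genes and, for lists and single genes, responses without centring were added after seeing the data. Gene positions are in GRCm38 and promoters from RefSeq, 1 per gene.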

Additional observations from a re-analysis of the deposited data

Results flagged for a closer look

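For Fcna, a ficolin of macrophages that binds bacterial sugars, and for Adgre1 the relative responses of the 2 genotypes passed 2-fold in opposite directions. Fcna had 145.3 and 49.1 FPKM in the wild type (steady state, then irradiated) and 40.9 and 88.6 FPKM in the cKO, with relative responses of -1.73 and 1.27 and an R of 2.998. Adgre1 had relative responses of -1.08 and 1.85 and an R of 2.93. With 1 library per group the difference between genotypes was not tested for either gene.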

How the results depend on the processing

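No paired analysis was possible because each group holds 1 library. No list median past 1.5-fold and no named gene past 2-fold changed direction in any alternative run that evaluated it. Of 89 named genes with an absolute R of 1 or more, 72 stayed past it in every setting that kept them as members. A gene below the minimum of a setting, as Pgam2 and Xcl1 were at 20 FPKM, was not counted as lost. Of 13 lists past 1.5-fold, 6 stayed past it. Lists and single genes were not evaluated at the 3-fold distance or without marker, globin and immunoglobulin genes. Lost in at least 1 setting were the lists of lysosome, MHC class II, mast cell, megakaryocyte, stroma, azurophil granule and Gimap genes, and 17 genes, Klf2, Osm, Isg15 and Ccnb1ip1 among them. The counts moved more, mostly with the number of genes admitted; the counts below are of genes against 668 higher, 62 lower, 626 rose alike and 887 fell alike. A minimum of 1 FPKM gave 1459 higher and 157 lower. A minimum of 20 FPKM gave 333 higher, 41 lower, 186 rose alike and 421 fell alike. No minimum gave 1070 higher, 315 lower and 1507 fell alike, with 77.3% of called genes higher. A pseudocount of 0.1 gave 103 lower, and one of 5 gave 41 lower, 374 rose alike and 555 fell alike. Without centring 132 were lower and 381 rose alike, with 488 higher, or 78.7% of called genes. Without non-coding and segment symbols 425 were higher and 8 lower. A 3-fold distance left 415 higher and 37 lower. Without marker, globin and immunoglobulin genes, chosen after seeing the data, 468 were higher and 25 lower. Apart from fewer or more genes or a wider distance, the cause of each move was not tested. The median R of the macrophage list ranged from 2.05 to 2.69 and that of the globin list from 1.53 to 3.02.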

Other observations

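Several further gene groups held few called members. Values are FPKM in the steady-state and irradiated wild-type and then the steady-state and irradiated cKO libraries, and R is as in the report. Of 26 genes of the unfolded protein and ATF4 responses, 2 were higher, Edem1 and Xbp1, a share close to the 8.59% of all members. Xbp1, a transcription factor of secretory cells and of plasma cells in particular, had 226.2, 65.4, 160.2 and 106.4 (R 1.54), and the plasma cell gene Jchain was also lowest in the irradiated wild-type library. The amino acid transporter Slc7a5, an ATF4 target, rose alike at 5.42, 18.7, 5.42 and 13.6 (R -0.07). Of 6 Gimap genes, GTPases of lymphocytes and stem cells, 3 were higher and 1 fell alike (8.59% and 11.4% of all members). The third higher gene, Gimap6, fell in both genotypes, at 101.6, 4.44, 132.1 and 10.1. Its R of 1.007 was just past the limit and was lost in at least 1 setting. Gimap3 had 8.57, 1.402, 8.03 and 10.3 (R 2.67) and Gimap4 20.4, 2.61, 17.1 and 13.4 (R 2.60). Gimap9, with 40.7, 21.4, 44.1 and 16.8, responded alike (R -0.10).

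In the glycolysis list 1 of 23 genes was higher (8.59% of all members): Bpgm, which makes the bisphosphoglycerate of red cells, had 14.1, 12.2, 12.4 and 23.6 (R 1.42). Gapdh, a core glycolytic enzyme, had 314.1, 607.0, 278.7 and 405.4 (R -0.06). None of the 18 cholesterol genes was called, and the list's median R was -0.25. The lowest was Idi1, an isomerase of the early pathway, with 6.31, 12.7, 9.99 and 7.80 (R -0.87). Among genes of apoptosis, Bax, an effector at the mitochondrion, rose alike at 125.1, 308.9, 119.4 and 225.5 (R -0.03), and Mcl1, a survival protein, fell alike at 109.9, 25.9, 117.9 and 26.6 (R 0.29).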
